A study of Mus musculus with 24 samples.

Results

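Translation initiation and elongation factor genes were examined by total RNA sequencing in mice that lack Thumpd1, the partner protein needed for acetylation of cytidine in leucine and serine tRNAs. The members were taken by symbol: every gene whose name begins with Eif or Eef and a digit, without the eIF2 alpha kinases, the eEF1A lysine methyltransferases, the Y-linked Eif2s3y and pseudogenes. This gave 60 of the 55450 genes in the count table, of which 59 are protein coding and 1, Eif2c5, is a long noncoding RNA that shares only the name. The libraries came from cerebellum, liver and testes of mice aged 6 to 12 weeks. There were 4 wild-type (WT, replicates 1 to 4) and 4 knockout (KO, Thumpd1 -/-, replicates 5 to 8) libraries per tissue. The line was made in C57BL/6N eggs, and the mice were kept and backcrossed on a C57BL/6 background. The KO allele was made with Cas9 cuts in exons 1 and 4 and is constitutive, so every cell of the animal lacks Thumpd1, and the WT controls were age-matched littermates. The study states that animals of either sex were used and gives no sex per library, several edited lines were made and the line used is not given, and the labels do not say that equal replicate numbers in different tissues mark one mouse.

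Initiation factors place the initiator tRNA and the small ribosomal subunit on the start codon of an mRNA, and elongation factors then carry aminoacyl-tRNAs to the ribosome and move it along. eIF2 brings the initiator tRNA as a complex with GTP, and its exchange factor eIF2B recharges it. Phosphorylation of the eIF2 alpha subunit by stress kinases turns eIF2 into an inhibitor of eIF2B, which is the switch of the integrated stress response. The eIF4F complex (the cap-binding eIF4E, the scaffold eIF4G and the helicase eIF4A) recruits the mRNA, and the 4E-binding proteins hold eIF4E back. Many elongation factor mRNAs begin with a run of pyrimidines and are translated under the control of mTOR.

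The libraries held 16353797 to 37889615 counts. Thumpd1 itself fell from 21.8 to 24 CPM (a gene's counts as a share of the library total) in WT cerebellum to 0 to 0.113 CPM in KO, from 9.19 to 10.1 to 0 to 0.106 CPM in liver, and from 24.3 to 26.3 to 0.768 to 1.14 CPM in testes, so each library went with its label. The 10 defining marker genes listed for each tissue were all present in their own tissue. The Y-linked Eif2s3y had 13.2 to 51.2 CPM over the 24 libraries, so each held RNA from a male. The members together took 0.631% to 0.652% of the counts in WT cerebellum and 0.665% to 0.675% in KO cerebellum. In testes they took 1.1% to 1.12% in WT and 1.05% to 1.09% in KO, and in liver 0.675% to 0.845% in WT and 0.708% to 0.806% in KO. The ranges of the 2 genotypes were thus apart in cerebellum (KO above) and in testes (KO below), and overlapped in liver. Abundant members led these totals. In cerebellum the eEF1A genes summed to a mean of 1346 CPM in WT and 1518 CPM in KO. Eef2, Eef2k and Eef2kmt summed to 824 and 925 CPM. The sums of other factors there rose less or fell, such as that of eIF4G (1045 and 1027 CPM). In bulk tissue, fewer cells of a type and less RNA per cell cannot be told apart.

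Levels of different members can be compared only per transcript length. For this the counts were divided by a gene's merged exon length and scaled to a fixed total per library (TPM). The exons were those of its protein-coding transcripts, or of all its transcripts where it had none of these. By mean TPM, Eef1a1 and Eef2 led the members in WT liver and testes, and Eef1a2, Eef1a1 and Eef2 in WT cerebellum. Eef1a1, which delivers aminoacyl-tRNA to the ribosome, reached 735 ± 31.3 TPM in WT cerebellum, 1454 ± 357 TPM in WT liver and 1524 ± 7.04 TPM in WT testes (SD, n = 4). Eef2, the translocase that moves the ribosome by a codon, stood at 569 ± 22.7, 551 ± 98.4 and 1125 ± 28.5 TPM in the same order. The second eEF1A gene, Eef1a2, is known as the form of neurons and muscle. It reached 806 ± 37.7 TPM in WT cerebellum, which was 52.3% ± 1.24 of the eEF1A mRNA there. In liver it gave 1 count over the 4 WT libraries, and in testes 2 to 6 counts per library. Eif5a2, the paralog of the hypusine-carrying factor Eif5a, followed the same order, with 15.1% ± 0.509 of the eIF5A mRNA in WT cerebellum, 2.14% ± 0.127 in testes and 0.0322% ± 0.0129 in liver, where it gave 3 to 8 counts per library.

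**Figure D1:**
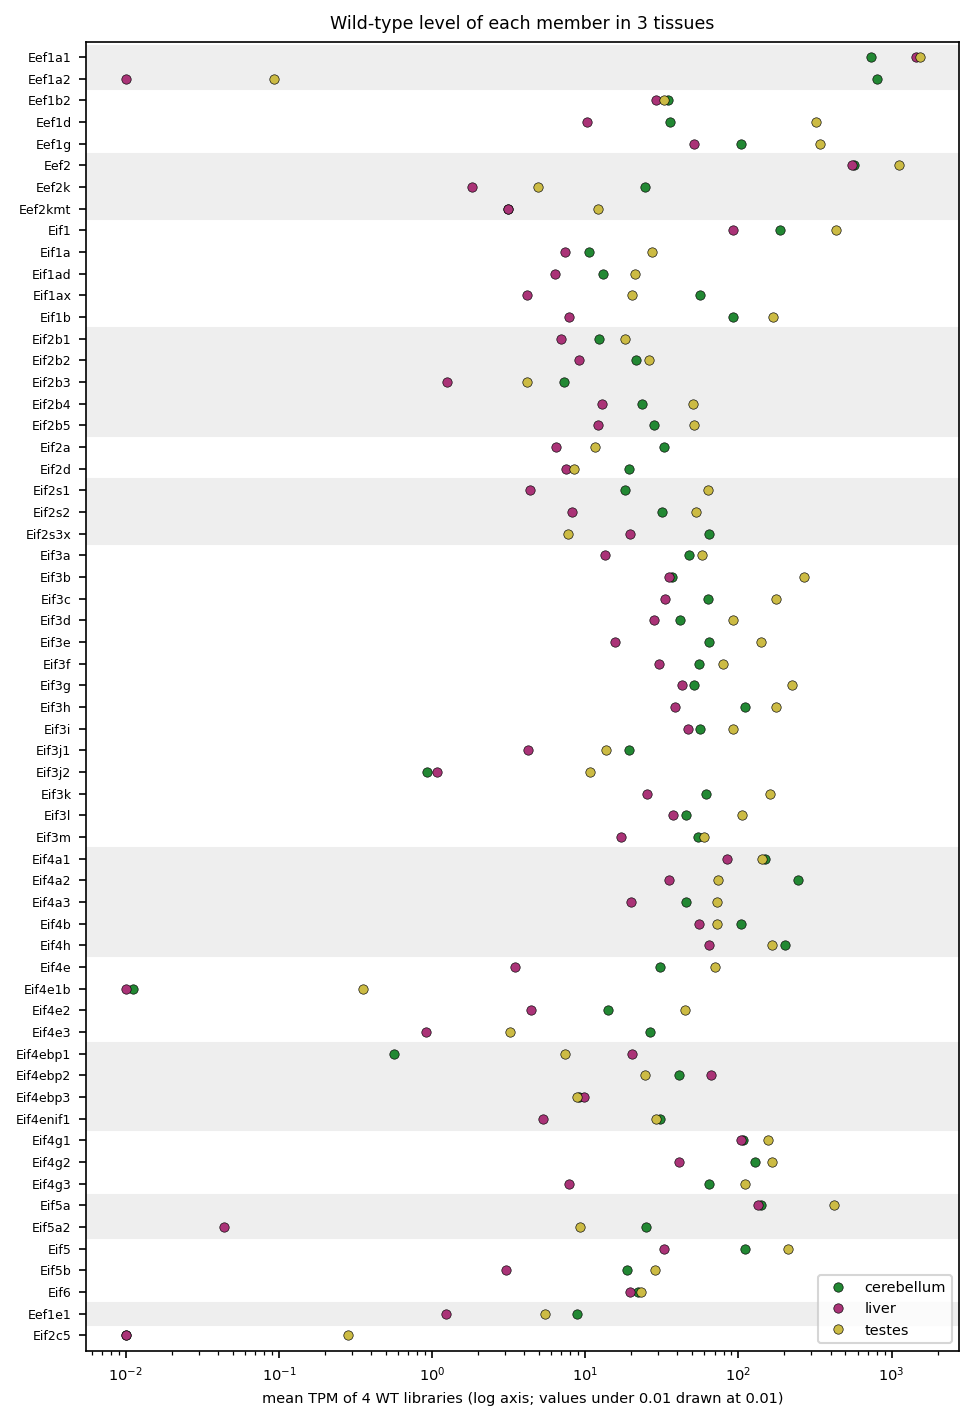
Mean TPM (log axis) of each of the 60 members in the 4 WT libraries of cerebellum, liver and testes, with shaded bands marking members of one factor or complex. Eef1a1 and Eef2 lie far to the right in each tissue, and Eef1a2 is furthest right in cerebellum and near 0 in liver and testes.

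The share of each gene in the summed mRNA of its complex or family was also computed, which says nothing of the proteins. These shares are ratios within one library, so they do not depend on how libraries are scaled to each other. They do depend on the exon lengths used. Among the 3 members that encode eIF2 subunits, without the Y-linked Eif2s3y, the gamma subunit gene Eif2s3x took 56.3% ± 1.27 of the summed TPM in WT cerebellum and 61.1% ± 1.70 in WT liver but 6.22% ± 0.530 in WT testes. The alpha subunit gene Eif2s1 took 16% ± 0.303, 13.6% ± 0.892 and 51.1% ± 0.762 in that order. The Y-linked gamma gene Eif2s3y, which is no member, had 49.1 ± 2.43 CPM in WT cerebellum, 14.7 ± 1.20 CPM in WT liver and 31.1 ± 3.92 CPM in WT testes, and made up 68.4% of the summed CPM of both gamma genes in testes against 32.6% in cerebellum.

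Cap recognition differed too. Eif4e, the cap-binding protein itself, made up 43.1% ± 0.803 of the eIF4E family mRNA in WT cerebellum, 39.4% ± 0.960 in liver and 59.2% ± 0.352 in testes. Eif4e3 took 37.0% ± 1.09 in cerebellum, 10.4% ± 0.886 in liver and 2.70% ± 0.195 in testes. Of the 4E-binding proteins, Eif4ebp1 took 20.9% ± 1.93 in liver and 18.1% ± 0.802 in testes but 1.12% ± 0.439 in cerebellum. Of the helicases, Eif4a2 led in cerebellum with 55.6% ± 1.22 and Eif4a1 led in liver with 59.9% ± 5.14 and in testes with 49.3% ± 1.1. Of the paired eIF1A genes, the X-linked Eif1ax took 84.1% ± 0.586 in cerebellum, and the autosomal Eif1a took 64.0% ± 3.45 in liver and 57.4% ± 2.07 in testes. The ranges over the 4 WT libraries did not overlap between any pair of tissues for Eif4e, Eif4e3, Eif4ebp1 and Eif4a1. They overlapped between liver and testes for Eif1a (58.9% to 65.9% and 55.3% to 60.01%) and Eif4a2.

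**Figure D2:**
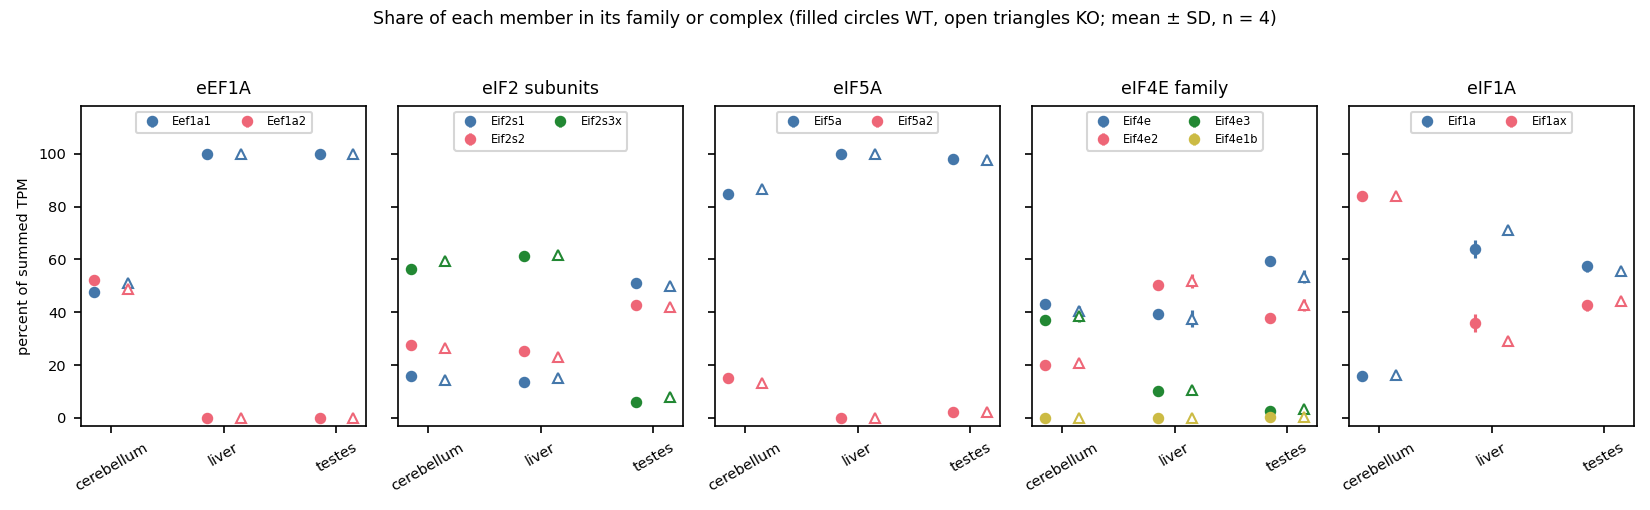
Percent of the summed TPM of a family or complex taken by each member (mean ± SD, n = 4), for WT (filled circles) and KO (open triangles) in 3 tissues. Eef1a2 carries 52.3% of eEF1A in WT cerebellum and almost none elsewhere, and Eif2s3x drops to 6.22% of eIF2 in WT testes.

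The eIF3 scaffold has 13 subunit genes apart from the nearly identical Eif3j2. Their levels ran from 19.2 TPM (Eif3j1) to 111 TPM (Eif3h) in WT cerebellum, from 4.26 TPM (Eif3j1) to 46.8 TPM (Eif3i) in WT liver and from 13.6 TPM (Eif3j1) to 266 TPM (Eif3b) in WT testes. Eif3j1, a loosely bound subunit, was the lowest of them in all 3 tissues. The subunits of eIF2B were likewise uneven, since Eif2b3 (gamma) took 7.82% ± 0.443 in WT cerebellum, 2.87% ± 0.542 in liver and 2.77% ± 0.193 in testes, whereas Eif2b5, the catalytic epsilon subunit, took 30.4% ± 0.998, 28.6% ± 1.19 and 34.2% ± 0.930.

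WT tissues were compared directly over the 12 WT libraries with limma-voom and TMM factors, calling an adjusted p below 0.05 with a log2 difference of at least 1. Of the 58 members tested (Eif2c5 and Eif4e1b stayed under 1 CPM in every one of the 24 libraries), 6 were higher and 28 lower in cerebellum than in liver, where 33.9% of all genes tested were called higher and 25.9% lower. In testes against liver 12 members were higher and 10 lower, beside 47.3% and 25.6% of all genes. In testes against cerebellum 33 were higher and 6 lower, beside 41.3% and 29.4% of all genes. These contrasts share libraries. The median over all genes moved with the scaling: for cerebellum against liver it was −0.02 with TMM, −0.21 with quantile normalization and 0.75 in plain CPM. Relative to it the members' median was −0.95, −0.47 and −0.53. For testes against liver the all-gene median was 0.83, −0.26 and 1.26, and the members' median relative to it was −0.73, 0.31 and −0.26, which changes sign. For testes against cerebellum it was 0.37, −0.27 and 0.09, with the members 0.78, 1.21 and 0.80 above it. Under TMM, quantile, DESeq2 and plain CPM scaling, 32 of the 34, 20 of the 22 and 39 of the 39 called members kept their sign. Fewer kept a log2 difference of at least 1 in all 4: 11 of 34 (6 higher, 5 lower), 13 of 22 and 30 of 39 in the same order. TPM was not among these scalings. By mean TPM, liver was the lowest WT tissue for 53 members. Among them were Eif3b, Eif3c, Eif3g, Eif4g1 and Eif5a, which were called lower in cerebellum than in liver. The median of the eIF3 subunits was 54.2 TPM in WT cerebellum and 30.3 TPM in WT liver. The direction of such calls against liver thus depends on the scaling, and none can be given for them.

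The differences named here kept their sign in all 4 scalings, apart from Eef1a1 between testes and liver, which was −1.68 with TMM and 0.24 with quantile normalization. Eif4ebp1, the mTOR-regulated brake on eIF4E, had 0.26, 0.404, 0.545 and 0.714 CPM in WT cerebellum. It had 35.5, 39.6, 35.2 and 31.7 CPM in WT liver and 7.76, 7.76, 6.62 and 7.04 CPM in WT testes. Its log2 difference was −7.41 ± 0.21 (SE; limma adjusted p = 5.86e-12) for cerebellum against liver, and for testes it was −3.22 ± 0.11 against liver and 4.18 ± 0.23 against cerebellum. Eif4ebp2 was lower than in liver by a log2 difference of −2.95 in cerebellum (−2.19 with quantile normalization) and −3.21 in testes. Eef1a1 was lower in cerebellum than in liver by −3.21 ± 0.10 with TMM but by −1.31 with quantile normalization. Eif2s3x was lower in testes than in liver (−3.11 ± 0.06) and than in cerebellum (−2.57 ± 0.06). Eif4e3, a cap-binding protein of the eIF4E family, was higher in cerebellum than in liver (2.6 ± 0.09) and lower in testes than in cerebellum (−2.55 ± 0.07, and −3.68 with quantile normalization). Eef1d, an exchange factor subunit for eEF1A, was higher in testes than in liver (3.20 ± 0.06) and in cerebellum (3.66 ± 0.06). Eif5a2 was higher than in liver in both other tissues (6.89 ± 0.20 in cerebellum and 5.92 ± 0.20 in testes), from 3 to 8 counts per liver library, and these were 5.44 and 4.16 with quantile normalization. Eif1b, a paralog of the start-site factor Eif1, was higher in testes than in liver (2.64 ± 0.08), and Eif3j2 was higher in testes than in cerebellum (4.01 ± 0.27). For Eef1a2 no fold is given, since liver and testes held 0 to 6 counts.

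KO was compared with WT in each tissue apart, over genes with at least 1 CPM in at least 4 of the 8 libraries, with quantile normalization and limma-voom at an adjusted p of 0.05. Of the 60 members 58 were tested in at least 1 tissue. Of these 15 passed in at least 1 tissue (25.9%, beside 23.8% of all genes tested), 1 of them (Eif2s3x) in 2 tissues, and 43 passed in none. In no tissue did a tested member change by a log2 value of 1 or more.

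**Figure D3:**
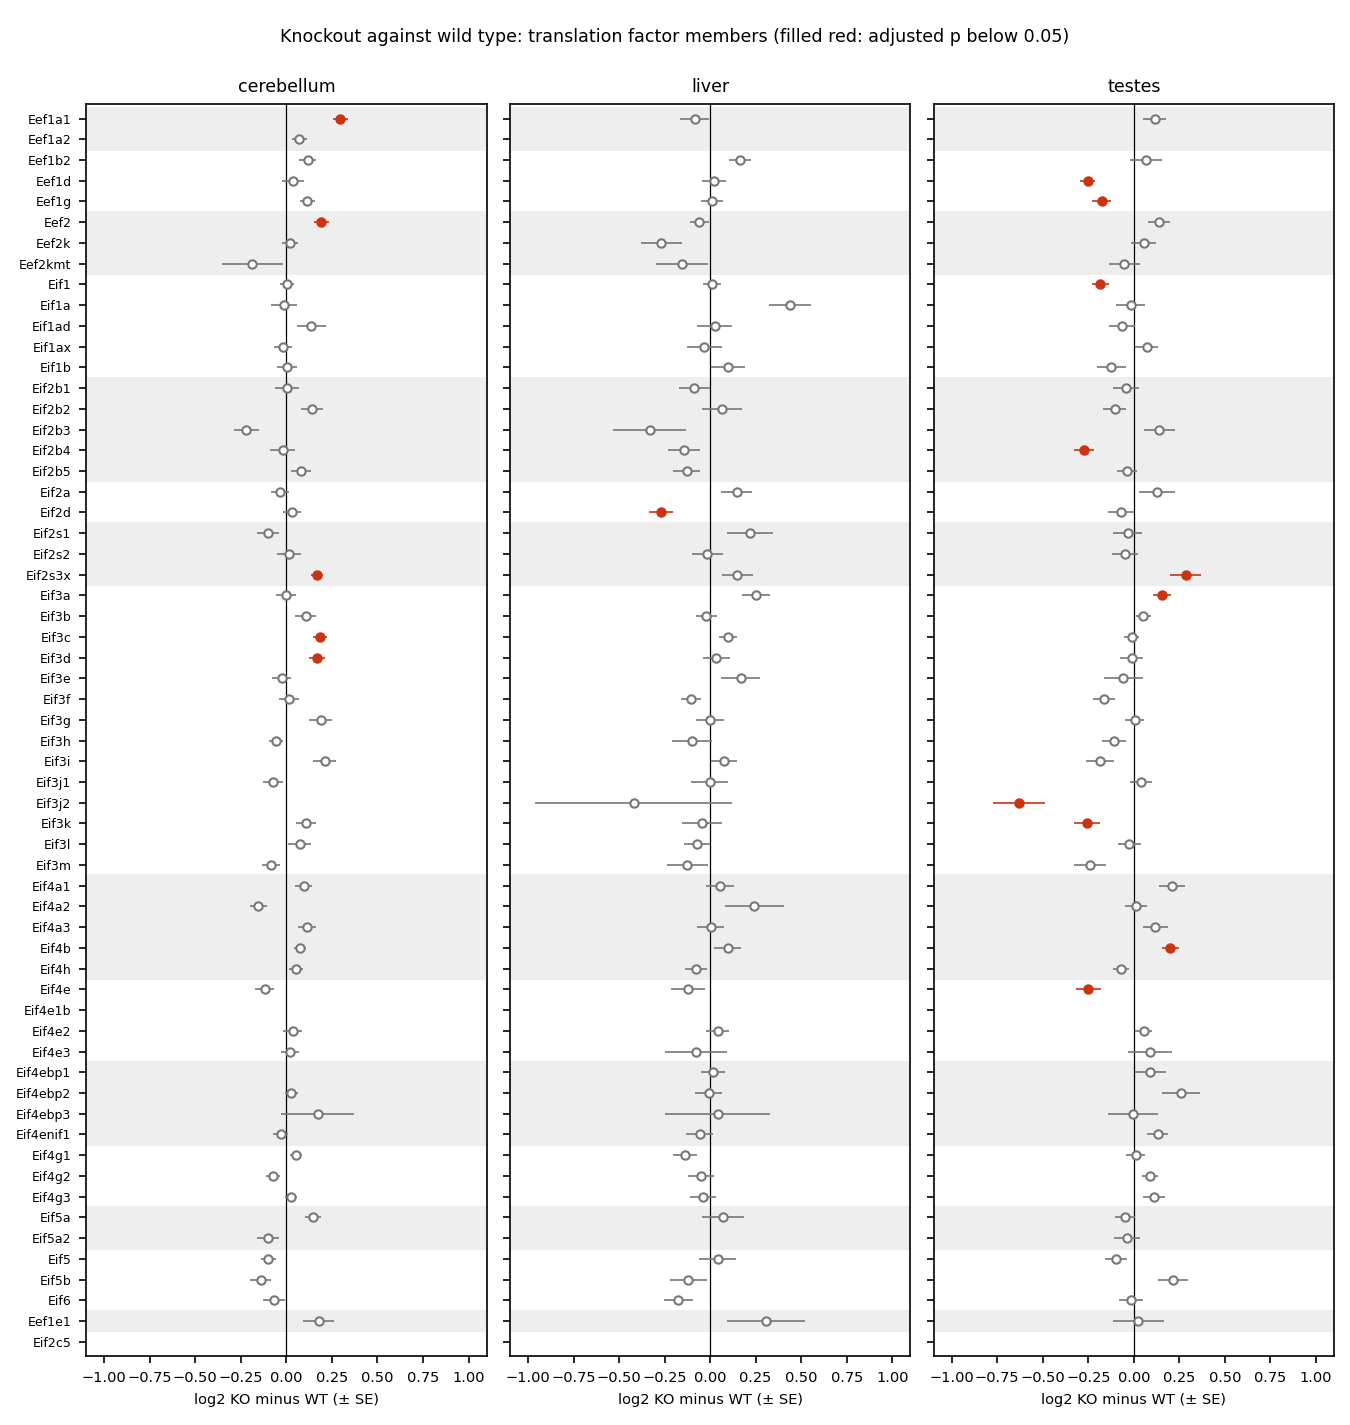
Fitted log2 change (KO minus WT, ± SE) of every tested member in each tissue, grouped by factor or complex as shaded bands; red filled points passed the adjusted p threshold. The 5 called members of cerebellum lie to the right of 0, the 1 of liver to the left, and those of testes on both sides with 7 to the left.

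In cerebellum 5 of 56 tested members were higher in KO (8.93%, beside 3.93% of all genes tested) and 0 were lower (2.51% of all genes). Without adjustment 18 members had p below 0.05 (32.1%, beside 24.2% of all genes). The same 5 were called by edgeR and by limma-voom with TMM, which added Eif4a2 as lower. DESeq2 called 6, with Eif3i in place of Eif3d and with Eif4a2 as lower. Eif2c5, Eif3j2, Eif4e1b and Eif4ebp1 were too low to test. The groups' CPM did not overlap for 11 members, 9 higher and 2 lower in KO, which is 19.6% of those tested beside 13.8% of all genes. The members' median log2 change was 0.03, and over all genes it was −0.01.

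The 5 members that rose in cerebellum were Eef1a1, Eef2, Eif2s3x, Eif3c and Eif3d. Eef1a1 had 659, 669, 600 and 601 CPM in WT and 749, 766, 765 and 777 CPM in KO. Every KO library lay above every WT library, and the log2 change was 0.30 ± 0.04 (limma adjusted p = 0.00179). Its partner Eef1a2 had 717, 733, 727 and 676 CPM in WT and 748, 691, 809 and 767 CPM in KO, with overlapping groups and a log2 value of 0.07 ± 0.04 (limma adjusted p = 0.328). Eef1a1 thereby made up 47.7% ± 1.24 of the eEF1A mRNA in WT and 51.1% ± 1.63 in KO. Eef2 had 760, 787, 732 and 706 CPM in WT and 858, 785, 901 and 839 CPM in KO. KO replicate 6 lay within the WT range, and the log2 change was 0.19 ± 0.04 (limma adjusted p = 0.019). The eEF2 kinase Eef2k, which inactivates eEF2, had a log2 value of 0.02 ± 0.05 (limma adjusted p = 0.831). The 3 subunit genes of the eEF1B exchange factor (Eef1b2, Eef1d and Eef1g) had values of 0.04 to 0.12, and none passed.

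Of the eIF2 subunits, the gamma gene Eif2s3x had 101, 104, 100 and 100 CPM in WT and 112, 115, 111 and 115 CPM in KO. The groups did not overlap, with a log2 change of 0.17 ± 0.03 (limma adjusted p = 0.0146). Its Y-linked counterpart Eif2s3y, which was tested in the same fit but is no member, went the other way, with 45.6 to 51.2 CPM in WT and 20.6 to 37.5 CPM in KO and a log2 change of −0.88 ± 0.14 (limma adjusted p = 0.0028). The sum of both gamma genes was 146 to 154 CPM in WT and 133 to 153 CPM in KO, so the groups overlapped. The alpha gene Eif2s1, the target of the stress kinases, had 27.2, 26.1, 26.0 and 26.1 CPM in WT and 24.5, 28.6, 23.7 and 23.6 CPM in KO (log2 −0.10 ± 0.06, limma adjusted p = 0.34). The eIF2B subunit Eif2b5 had a log2 value of 0.08 ± 0.05 (limma adjusted p = 0.38). Over the 5 eIF2B genes the values ran from −0.22 to 0.14, and none passed. Eif2b3 took 7.82% ± 0.443 of the eIF2B subunit TPM in WT cerebellum and 6.53% ± 0.173 in KO.

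Of the 13 eIF3 genes tested, 2 rose and 0 fell (beside 3.93% of all genes called higher and 2.51% lower). Eif3c, a core subunit, had 94.5, 95.8, 97.5 and 90.8 CPM in WT and 109, 102, 108 and 111 CPM in KO. The groups were apart, with a log2 change of 0.19 ± 0.04 (limma adjusted p = 0.0149). Eif3d, the subunit that can itself bind the cap, had 37.1, 38.5, 34.9 and 37.3 CPM in WT and 43.3, 41.9, 41.1 and 41.2 CPM in KO. The groups did not overlap here either, with a log2 change of 0.17 ± 0.05 (limma adjusted p = 0.0474), a call that held in 2 of the 8 fits that left out a library. Exons of Eif3d overlap Gm17638 on the other strand, and Eif2s3x shares 1350 bases at 100% identity with Gm2223, whose own level was 3.79 CPM in WT and 5.19 CPM in KO. With the counts of such copies added to each member, 5 members were again called.

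Of the eIF4A helicases, Eif4a2 had a log2 value of −0.16 in cerebellum, just short of the threshold (limma adjusted p = 0.0648), and its share of the family was 53.9% to 56.8% in WT and 49.7% to 52.9% in KO. The 3 genes of the late steps, Eif5, Eif5b and Eif6, all had negative values (−0.14 to −0.07), and none passed. Other named members did not pass in cerebellum either. Eif5a, which eases the ribosome over proline stretches, had 146, 148, 135 and 141 CPM in WT and 154, 149, 161 and 164 CPM in KO (log2 0.15 ± 0.04, limma adjusted p = 0.0537). Eif5a2 had a log2 value of −0.10 ± 0.06 (limma adjusted p = 0.317), and Eif4e one of −0.12 ± 0.05 (limma adjusted p = 0.18). Eif4ebp1, below the test limit, had 0.26 to 0.714 CPM in WT and 0.509 to 1.65 CPM in KO.

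**Figure D4:**
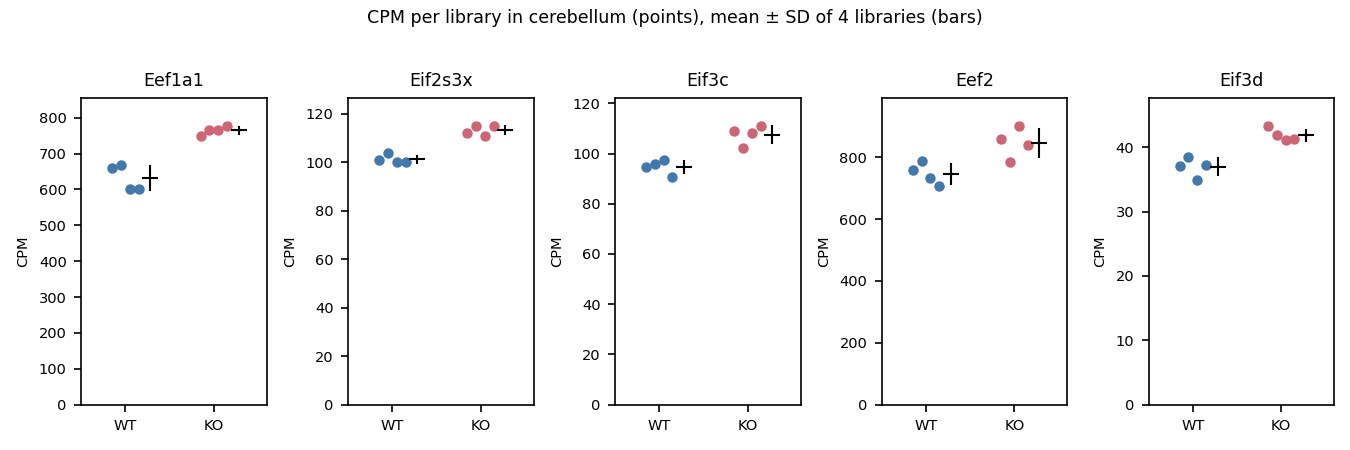
CPM per library (points) of the 5 members called in cerebellum, with the mean ± SD of 4 libraries beside them; each axis starts at 0. Eef1a1, Eif2s3x, Eif3c and Eif3d show every KO library above every WT library, and Eef2 has 1 KO library at 785 CPM inside the WT range.

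For the 5 members called in cerebellum, the bases around the annotated start are shown, from 40 before to 20 after the start in RefSeq (GRCm38.p6), with the longest run of pyrimidines in capitals. The windows lie on the minus strand at chr9:78481705-78481764 (Eef1a1), chrX:94212632-94212691 (Eif2s3x), chr7:126566347-126566406 (Eif3c) and chr15:77970805-77970864 (Eif3d), and on the plus strand at chr10:81176591-81176650 (Eef2).
Eef1a1: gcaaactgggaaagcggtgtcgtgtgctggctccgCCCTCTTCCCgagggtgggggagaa
Eef2: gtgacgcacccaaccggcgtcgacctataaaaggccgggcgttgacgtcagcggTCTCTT
Eif2s3x: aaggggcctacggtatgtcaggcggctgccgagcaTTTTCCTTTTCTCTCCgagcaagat
Eif3c: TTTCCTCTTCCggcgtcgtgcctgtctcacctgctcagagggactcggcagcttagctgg
Eif3d: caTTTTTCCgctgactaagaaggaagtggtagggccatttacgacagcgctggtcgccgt
Within the window the runs held 10, 6, 16, 11 and 7 bases in that order, where those of Eef2 and Eif3c reach the window's edge and may run on, and only those of Eef1a1 and Eif2s3x span the annotated start. By the stricter reading of a C at the start followed by at least 4 pyrimidines, Eif2s3x alone of the 5 qualified. Over the 46 members with a promoter in the table, 3 qualified (Eif2c5, Eif2s3x and Eif3f; 6.52%), beside 3.01% of the 27025 genes in the table. The letters TGATGNAA, the core of the element bound by the stress factor Atf4, were found on either strand in the 300-base promoters of 2 of the 46 (Eef2k and Eif2s3x; 4.35%) and in 4.51% of all genes. These matches describe letters only, and annotated starts need not be the starts used in cerebellum.

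Other genes moved with genotype in cerebellum. Of the forebrain marker list 4 of 11 tested genes were higher, and the summed level of the list was 368 to 400 CPM in WT and 406 to 435 CPM in KO (1 of its 15 genes was at 0 throughout). The 10 defining cerebellar genes summed to 7351 to 7651 CPM in WT and 6930 to 7391 CPM in KO, with 1 higher and 3 lower. Of the macrophage list 0 of 11 tested genes were called, with sums of 71.1 to 82.6 CPM in WT and 85.7 to 88.4 CPM in KO. Of the midbrain list 2 of 9 were higher and 1 lower, with overlapping sums. Choroid plexus genes, of which 0 of 10 passed, ranged from 20.1 to 1123 CPM in WT and from 24.6 to 378 CPM in KO. Their part in the changes of the members was not tested. Of the 8 fits that left out a library, the call of Eef1a1 held in 8, that of Eif2s3x in 6, Eif3c in 5, Eef2 in 4 and Eif3d in 2. Leaving out WT replicate 3, WT replicate 4, KO replicate 5 or KO replicate 8 left 2 called members, leaving out WT replicate 1 left 3 and leaving out KO replicate 6 gave 10. A fit over all 24 libraries called none of the 5, with log2 values of 0.24 for Eef1a1, 0.15 for Eef2, 0.13 for Eif2s3x, 0.16 for Eif3c and 0.15 for Eif3d (limma adjusted p from 0.347 to 0.736).

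In liver 0 of 56 tested members were higher in KO (2.79% of all genes) and 1 was lower (3.12% of all genes). Eef1a2, Eif2c5, Eif4e1b and Eif5a2 were too low to test. Without adjustment 5 members had p below 0.05 (8.93%, beside 23.3% of all genes), and the groups did not overlap for 2 (3.57%, beside 12.7% of all genes). The member that fell was Eif2d, which can bring initiator tRNA to the ribosome without eIF2. It had 28.5, 27.7, 28.7 and 23.3 CPM in WT and 21.1, 22.6, 22.0 and 23.0 CPM in KO. WT replicate 4 lay just above the KO range, and the log2 change was −0.27 ± 0.07 (limma adjusted p = 0.0405). The call held in 1 of the 8 fits that left out a library. No member was called without WT replicate 1, 2 or 3 or KO replicate 5, 6 or 8, and 2 were called without WT replicate 4 or KO replicate 7. Without the filter on low counts 0 members were called, and a fit over all 24 libraries called 6. Exons of Eif2d overlap Rassf5 on the other strand.

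Eif1a, which helps the ribosome scan for the start codon, had 28.2, 24.8, 26.9 and 28.8 CPM in WT liver and 41.0, 40.1, 31.8 and 34.1 CPM in KO liver. The groups were apart, and the log2 value of 0.44 ± 0.12 did not pass (limma adjusted p = 0.0522), while DESeq2 called Eif1a higher. The abundant elongation factors did not separate the genotypes. Eef1a1 had 2882, 2863, 2514 and 1991 CPM in WT and 2129, 2167, 2699 and 2876 CPM in KO, and both genotypes held low and high libraries (log2 −0.08 ± 0.08, limma adjusted p = 0.571). Eef2 had 1284 to 1591 CPM in WT and 1264 to 1520 CPM in KO (log2 −0.06 ± 0.05, limma adjusted p = 0.529).

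The stress-linked members of liver showed no call either. Eif2s1 had 14.5, 12.0, 13.3 and 12.7 CPM in WT and 18.0, 17.8, 13.5 and 13.7 CPM in KO (log2 0.22 ± 0.13, limma adjusted p = 0.333). Eif2b5 had a log2 value of −0.13 ± 0.08 (limma adjusted p = 0.342) and Eef2k one of −0.27 ± 0.11 (limma adjusted p = 0.187). Eif4ebp1 had 31.7 to 39.6 CPM in WT and 33.0 to 37.3 CPM in KO, the log2 value being 0.02 ± 0.07 (limma adjusted p = 0.919). For Eif4e it was −0.12 ± 0.10 (limma adjusted p = 0.482) and for Eif5a 0.07 ± 0.12 (limma adjusted p = 0.773). Abundant noncoding RNAs took 17.5% to 31.0% of the counts in WT liver and 17.5% to 27.2% in KO liver, and of the macrophage list 2 of 14 tested genes were higher in KO (316 to 396 CPM in WT, 376 to 411 CPM in KO). Their part in these values was not tested.

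In testes 3 of 57 tested members were higher in KO (5.26%, beside 9.74% of all genes) and 7 were lower (12.3%, beside 10.7% of all genes). Eef1a2, Eif2c5 and Eif4e1b were too low to test. Without adjustment 18 members had p below 0.05 (31.6%, beside 37% of all genes). The groups did not overlap for 14 members (24.6%, beside 28.6% of all genes), of which 9 were lower in KO. By limma-voom or edgeR with TMM factors and by DESeq2 with its size factors, the count was 1 higher and 11 lower. With TMM this was 1.75% and 19.3% of the members, beside 11.2% and 11.7% of all genes, so the split of the members depended on the scaling. Of these calls 8 members were shared with the quantile fit, Eif4b and Eif3a dropped out, and Eif5, Eif3f, Eif4h and Eif5a were added as lower.

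Both called members of the eEF1B exchange factor, which recharges eEF1A with GTP, fell. Eef1d had 554, 603, 583 and 592 CPM in WT and 473, 477, 428 and 484 CPM in KO. The groups were well apart, with a log2 change of −0.25 ± 0.04 (limma adjusted p = 0.00419), and the call held whichever library was left out. Eef1g had 310, 311, 311 and 325 CPM in WT and 288, 285, 247 and 264 CPM in KO, again apart, with −0.18 ± 0.05 (limma adjusted p = 0.03). The Eef1g call held in 3 of the 8 fits that left out a library. The remaining subunit gene, Eef1b2, had 30.4 to 32.9 CPM in WT and 28.8 to 37.7 CPM in KO and did not pass (log2 0.06 ± 0.09, limma adjusted p = 0.624). Over Eef1b2, Eef1d and Eef1g, the sum was 896 to 947 CPM in WT and 711 to 799 CPM in KO. Eef1a1 itself had 1500 to 1557 CPM in WT and 1382 to 1683 CPM in KO, and Eef2 had 1643 to 1785 CPM in WT and 1584 to 1716 CPM in KO. Their log2 values of 0.11 ± 0.07 and 0.14 ± 0.06 (limma adjusted p = 0.228 and 0.124) turned negative under TMM scaling, so no direction can be given.

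Of the start-site and eIF2 factors, Eif1, which guards the choice of the start codon, had 388, 401, 420 and 416 CPM in WT and 354, 343, 323 and 361 CPM in KO. It fell by 0.18 ± 0.05 on the log2 scale, without overlap (limma adjusted p = 0.0172), a call that held in 6 of the 8 fits that left out a library. Eif2b4, the delta subunit of eIF2B, had 57.4, 60.1, 61.8 and 60.4 CPM in WT and 52.1, 51.2, 53.3 and 49.1 CPM in KO. It also fell without overlap, by 0.27 ± 0.06 on the log2 scale (limma adjusted p = 0.00808), and took 33.5% ± 0.456 of the eIF2B subunit TPM in WT and 29.8% ± 0.564 in KO. Exons of Eif2b4 overlap Snx17 on the other strand. Eif2s3x rose from 16.3, 14.2, 13.7 and 13.1 CPM in WT to 17.4, 18.2, 21.8 and 17.7 CPM in KO, with a log2 change of 0.28 ± 0.08 (limma adjusted p = 0.035), a call that was lost in 5 of the 8 fits that left out a library. Its Y-linked counterpart had 26.6 to 35.8 CPM in WT and 30.1 to 39.3 CPM in KO (log2 0.07 ± 0.11, limma adjusted p = 0.653). Eif2s1 and Eif2b5 stood at −0.03 ± 0.08 and −0.04 ± 0.05 (limma adjusted p = 0.791 and 0.664).

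Of the mRNA recruitment factors, Eif4e fell. It had 218, 203, 209 and 209 CPM in WT and 189, 187, 156 and 155 CPM in KO, where replicates 7 and 8 were lowest, with a log2 change of −0.25 ± 0.07 (limma adjusted p = 0.0248). The call held in 4 of the 8 fits that left out a library. Eif4e2, the family member known as a repressor, had 164 to 172 CPM in WT and 160 to 179 CPM in KO, so that the share of Eif4e in the family went from 59.2% ± 0.352 to 53.5% ± 2.56. Eif4b, a cofactor of the eIF4A helicase, had 147, 155, 146 and 148 CPM in WT and 163, 174, 172 and 164 CPM in KO. The groups were apart, with 0.20 ± 0.05 (limma adjusted p = 0.0163), and with TMM factors the log2 value was 0.12 and did not pass. The binding protein Eif4ebp1 had 6.62 to 7.76 CPM in WT and 7.74 to 8.61 CPM in KO (log2 0.09 ± 0.09, limma adjusted p = 0.471).

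Of the 14 eIF3 genes, 1 rose and 2 fell (beside 9.74% of all genes called higher and 10.7% lower). Eif3k, a small peripheral subunit, had 84.7, 88.0, 86.3 and 83.9 CPM in WT and 78.6, 77.6, 75.4 and 62.9 CPM in KO. The groups did not overlap, with a log2 change of −0.26 ± 0.07 (limma adjusted p = 0.0264), and the call held in 5 of the 8 fits that left out a library. Eif3a, the largest scaffold subunit, had 155, 139, 146 and 145 CPM in WT and 165, 166, 152 and 162 CPM in KO. The groups overlapped, and its log2 change of 0.16 ± 0.05 (limma adjusted p = 0.0406) passed in 2 of the 8 fits that left out a library and in 1 of 6 other settings.

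Eif3j2 gave the largest fitted change of a member in testes, with 12.7, 12.8, 11 and 14.1 CPM in WT and 10.4, 9.76, 6.78 and 8.98 CPM in KO, and a log2 change of −0.63 ± 0.14 (limma adjusted p = 0.0132). It is uncertain, because Eif3j2 is 99.41% identical to Eif3j1 over 2379 bases and its counts are fractions of shared reads. Summed, the 2 genes had 47.7 to 52.2 CPM in WT and 47.2 to 51.2 CPM in KO, which overlap. Eif5a, Eif5a2 and Eef2k had log2 values of −0.05 ± 0.06, −0.04 ± 0.07 and 0.05 ± 0.07 and did not pass (limma adjusted p = 0.549, 0.727 and 0.602). For Eif5a all KO libraries (415 to 475 CPM) lay below all WT libraries (480 to 513 CPM), and with TMM factors its log2 value of −0.18 passed.

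**Figure D5:**
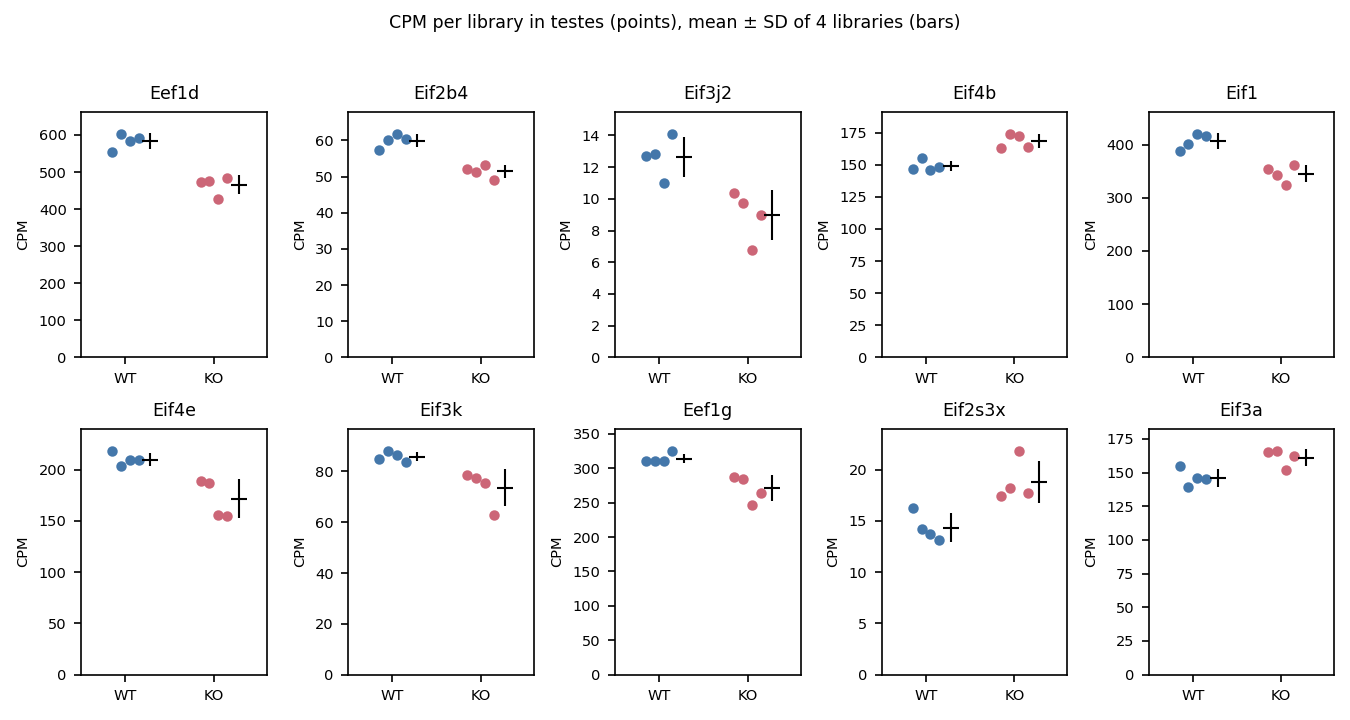
CPM per library (points) of the 10 members called in testes, in order of p, with the mean ± SD of 4 libraries beside them; each axis starts at 0. Eef1d, Eif2b4, Eif3j2, Eif1, Eif4e, Eif3k and Eef1g show every KO library below every WT library, and Eif3a shows overlap.

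Marker genes of testicular cell types moved with genotype. Of the Sertoli cell list 18 of 22 tested genes were higher in KO, and the list summed to 1723 to 1957 CPM in WT and 2244 to 3051 CPM in KO. Of the round spermatid list 9 of 19 genes were lower (2517 to 2629 CPM in WT, 2103 to 2515 CPM in KO), as were 8 of 16 of the elongating spermatid list (18408 to 19312 CPM in WT, 13965 to 17099 CPM in KO). Spermatocyte genes, with 1 higher and 2 lower of 18, summed to 1458 to 1597 CPM in WT and 1500 to 1670 CPM in KO. Of the spermatogonia list 2 of 11 were higher (185 to 204 CPM in WT, 201 to 284 CPM in KO), and of the Leydig list 2 were higher and 1 lower of 10, with overlapping sums. No gene of these 6 lists was at 0 in all testes libraries of a genotype. Their part in the changes of the members was not tested. Leaving out WT replicate 3 or WT replicate 4 left 3 called members, and leaving out WT replicate 2 left 6.

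Whether the KO effect differed between tissues was tested in 1 fit over the 24 libraries with TMM factors, on the 11112 genes (54 members) that passed the filter in all 3 tissues. In testes against cerebellum 16 of 54 members were called, all with the lower value in testes: 29.6% of the members, beside 7.42% of all genes called lower, while 0 members were called higher (7.13% of all genes). Over the members 41 of 54 differences were negative, and over all genes 50.2%. The called members were Eif3c, Eef1d, Eef2, Eef1g, Eif1, Eif3i, Eif4h, Eif3k, Eif3f, Eif3g, Eif5a, Eef1a1, Eif2b4, Eif4g1, Eif3b and Eif3d, of which 7 belong to eIF3. The count fell to 4 when genes needed 1 CPM in only 4 of the 24 libraries, and it stayed between 12 and 18 when single libraries were left out. The testes marker lists that moved with genotype belong to these same libraries, and their part in the differences was not tested.

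The fitted effects behind these differences were small. For Eif3c the log2 effect was 0.17 (cerebellum), 0.07 (liver) and −0.19 (testes), with a testes against cerebellum difference of −0.36 ± 0.07 (limma adjusted p = 0.00122). Eef2 had 0.17, −0.09 and −0.20 in that order, a difference of −0.37 ± 0.07 (limma adjusted p = 0.00195). Eef1d had 0.03, 0.01 and −0.46, a difference of −0.49 ± 0.09 (limma adjusted p = 0.00177). These are values of the fit with TMM factors. The per-tissue fits with quantile normalization differed by −0.20 for Eif3c, −0.05 for Eef2 and −0.29 for Eef1d, with no test, and over all 16 called members by −0.40 to −0.04, each smaller in size than with TMM. Under the looser filter the Eef2 difference did not pass (limma adjusted p = 0.134). With quantile normalization in testes alone, neither Eif3c (−0.01, limma adjusted p = 0.847) nor Eef2 passed the test and Eef2 was positive, so no direction in testes can be given for them. Eef1g (−0.46 ± 0.09), Eif1 (−0.35 ± 0.07) and Eif3i (−0.47 ± 0.11) had limma adjusted p values of 0.00209, 0.00381 and 0.00556, and Eif3i did not pass under the looser filter (limma adjusted p = 0.0872).

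In testes against liver 6 members were called, all lower in testes (11.1% of the members, beside 7.92% of all genes called lower and 7.95% called higher). These were Eif1 (−0.37 ± 0.07), Eef1d (−0.47 ± 0.10), Eif3c (−0.26 ± 0.06), Eif1a (−0.52 ± 0.13), Eef1g (−0.34 ± 0.09) and Eif3i (−0.31 ± 0.10). Their per-tissue quantile values differed by −0.46 to −0.11, each smaller in size. With genes at 1 CPM in only 4 of the 24 libraries 4 members were called, 1 of them higher, and Eef1g, Eif3c and Eif3i did not pass (limma adjusted p = 0.177, 0.298 and 0.363). For Eif1a, a near-call in liver alone, the log2 effect was 0.42 in liver, −0.01 in cerebellum and −0.10 in testes. In cerebellum against liver 2 members were called, both with the higher value in cerebellum (3.70%, beside 3.9% of all genes called higher and 3.77% called lower): Eif2d (0.31 ± 0.08, limma adjusted p = 0.0176) and Eef2 (0.26 ± 0.07, limma adjusted p = 0.026). Neither passed under the looser filter (limma adjusted p = 0.052 and 0.194), and Eef2 did not pass with edgeR and passed in 17 of 24 fits that left out a library. Without KO replicate 5 or 6 of testes the testes against liver count was 12 or 11. The cerebellum against liver count was 1 without cerebellum WT replicate 3 or 4, cerebellum KO replicate 5 or 7, liver WT replicate 2 or liver KO replicate 5, and 4 without liver WT replicate 4 or liver KO replicate 7. With the replicate number as a block the counts were 18 for testes against cerebellum, 10 for testes against liver and 5 for cerebellum against liver. The 3 contrasts share libraries with one another, so their counts are not independent.

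A list of 52 translation partners (poly(A)-binding proteins, release and rescue factors, enzymes that modify eIF5A and eEF2, kinases and mitochondrial factors), of which 51 were in the table, had 0 higher and 1 lower of 50 tested in cerebellum (2% lower, beside 2.51% of all genes). That member was Ddx3x, an RNA helicase that helps initiation (log2 −0.16 ± 0.04, limma adjusted p = 0.0392). In liver 1 of 49 was higher (2.04%, beside 2.79% of all genes) and 0 lower: Paip2, which restrains the poly(A)-binding protein (0.32 ± 0.08, limma adjusted p = 0.047). In testes 7 of 51 were higher (13.7%, beside 9.74% of all genes) and 2 lower (3.92%, beside 10.7%). First by p were Ddx3x (0.42 ± 0.08), the mitochondrial recycling factor Mrrf (−0.36 ± 0.08), the release factor subunit Gspt2 (0.52 ± 0.12) and the GTP-binding protein Gtpbp1 (0.25 ± 0.06), with limma adjusted p values of 0.0057, 0.0122, 0.0125 and 0.0158.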

How the data were processed

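RNA from cerebellum, liver and testes of WT and KO mice (4 libraries per group, 24 in all) was sequenced by the authors as stranded total RNA after removal of ribosomal RNA, with paired ends. The authors deposited expected counts for each gene, obtained by STAR alignment to mm10 and RSEM quantification against GENCODE M21. Versions and the strand setting are not given in the sources used here, so 14 of the 60 members, with exons shared by an antisense gene, are uncertain. Total counts ran from 16353797 to 37889615, and 0 value columns were left unused. Whether the libraries of a group came from separate animals was taken from the study, and otherwise p-values measure the spread between these libraries only.

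Unrounded expected counts went into voom and limma 3.58.1 (R 4.3.3), and rounded ones into edgeR 4.0.16 and DESeq2 1.42.0. Each tissue was fitted apart on genes with at least 1 CPM in at least 4 of 8 libraries, with quantile normalization, as the study's methods state, and a two-sided Benjamini-Hochberg adjusted p of 0.05 over all genes tested. How many libraries had to pass the CPM limit is not stated there. Differences between tissues used TMM factors, and WT tissues also needed a log2 difference of at least 1. TPM values were computed from the exon length of each gene and the counts. Copies of the members were sought by alignment of transcripts at 95% identity over 200 bases, which gave copies of 20 members in 56 other genes. Genes that overlap a member on the same strand were left out of these copies. Among them, Naprt (92.9 CPM in WT liver) shares 277 bases at 100% identity with Eef1d. Gm20696 (12.15 CPM in WT cerebellum) shares 219 bases at 100% identity with Eif4e3. The counts of such members are uncertain too. A count of 0 allows up to 3 counts, which covers counting error only. The scripts were tested on simulated counts.

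The members, lists and tests were chosen with earlier results of these data known. Named with values were Eif2s1, Eif2b5, Eif4e, Eif4ebp1, Eif5a, Eif5a2, Eef1a1, Eef1a2, Eef2 and Eef2k in each tissue, up to 12 called members per tissue, up to 6 per difference between tissues, the 3 largest in each direction between WT tissues, and up to 4 called partners per tissue. Members beyond this rule (Eif1a in liver, Eif4e2 in testes and those used to describe complexes) were chosen after their values were seen. Alternatives were other tools and normalizations, no filter, 1 fit over 24 libraries, each library left out, the replicate number as a block and, added after seeing the data, counts summed over near-identical copies. Promoter sequences are from RefSeq (GRCm38.p6; 46 members matched). Whether equal replicate numbers in different tissues mark one mouse is not known. Correlations of the deviations of same-numbered libraries ran from −0.212 to 0.201, and 10 of 24 were above 0.1, among them all 4 KO pairs of testes and liver. Differently numbered pairs ran from −0.323 to 0.310, with a median of −0.00145 beside 0.0399 for the same-numbered pairs. Since not every same-numbered pair was above 0.1, the numbers were not used as a block in the main tests. That limit cannot exclude shared mice.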

Additional observations from a re-analysis of the deposited data

Results flagged for a closer look

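In 8 of 86 groups of 4 libraries 1 library stood far from the other 3 by Dixon's criterion, which chance alone gives in about 1 in 20 groups. In cerebellum these were a WT library at 27.2 CPM for Eif2s1 (nearest 26.1 CPM) and a KO library at 1.65 CPM for Eif4ebp1 (nearest 0.664 CPM). In liver they were a KO library at 22.7 CPM for Eif2b5 (nearest 25.2 CPM) and a WT library at 0.031 CPM for Eef1a2, which is 1 count. In testes they were a KO library at 415 CPM for Eif5a (nearest 466 CPM) and WT libraries at 0.201 CPM for Eef1a2 (nearest 0.0628 CPM), 155 CPM for Eif4b (nearest 148 CPM) and 325 CPM for Eef1g (nearest 311 CPM).

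The KO effect passed the test of the difference between tissues for the members named in the report. The log2 difference of the effect in cerebellum against liver was 0.31 for Eif2d and 0.26 for Eef2. In testes against liver it was −0.37 for Eif1, −0.47 for Eef1d, −0.26 for Eif3c, −0.52 for Eif1a, −0.34 for Eef1g and −0.31 for Eif3i. In testes against cerebellum it was −0.36 for Eif3c, −0.49 for Eef1d, −0.37 for Eef2, −0.46 for Eef1g, −0.35 for Eif1 and −0.47 for Eif3i. These differences come from the fit with TMM factors, and the per-tissue values with quantile normalization differed by less in each case, by −0.05 for Eef2 and −0.20 for Eif3c in testes against cerebellum. Several did not pass when genes needed 1 CPM in only 4 of the 24 libraries: Eef2 and Eif2d in cerebellum against liver, Eef1g, Eif3c and Eif3i in testes against liver, and Eef2 and Eif3i in testes against cerebellum. No explanation was tested for these values.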

How the results depend on the processing

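The count of called members in cerebellum (5) became 0 in the fit over all 24 libraries and ran from 2 to 10 with single libraries left out, and the median log2 change there became −0.000544 in the fit over 24 libraries. In liver (1) it became 2 with DESeq2, 0 without the filter, 6 in the fit over 24 libraries and 0 to 2 with single libraries left out. In testes (10) it ran from 3 to 11 with single libraries left out, and the median log2 change moved from −0.01 to −0.0454 with edgeR, −0.0489 with DESeq2, −0.0471 with TMM, −0.0512 in the fit over 24 libraries and −0.0226 to 0.0218 with single libraries left out. Members whose effect differed between cerebellum and liver (2) became 1 with edgeR, 0 under the looser filter (1 CPM in 4 of 24 libraries) and 1 to 4 with single libraries left out. Between testes and liver (6) they were 4 under the looser filter and ran from 5 to 12 with single libraries left out, the most without KO replicate 5 of testes, and between testes and cerebellum (16) the looser filter gave 4. With the replicate number as a block, whose meaning as a pairing is not known, the counts were 5, 10 and 18 for the differences of the effect and 34, 22 and 39 between WT tissues.

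Directions turned for values that had not passed. Eef2k in cerebellum became −0.00475 (24 libraries) and −0.0139 to 0.0455 with single libraries left out. Eif4ebp1 in liver became −0.00658 (edgeR), −0.00294 (DESeq2), −0.00738 (TMM), −0.0540 (24 libraries) and −0.00984 to 0.0487 with single libraries left out, and Eif5a in liver −0.0533 (24 libraries). In testes Eef1a1 became −0.0365, −0.0400, −0.0388 and −0.0459 and Eef2 −0.127, −0.131, −0.127 and −0.135 (edgeR, DESeq2, TMM, 24 libraries), and with single libraries left out Eif2s1 ran from −0.0869 to 0.0316 and Eif5a from −0.0860 to 0.00196, turning without KO replicate 8. The cause was not tested. Depth limits values under 3 counts, such as Eef1a2 in liver.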
